A study of Mus musculus with 9 samples.

Results

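The Slit ligands Slit1, Slit2 and Slit3 and the Robo receptors Robo1, Robo2 and Robo4 were followed on 9 mouse heart arrays. These 6 of 18193 measured genes are covered by 11 probe sets that are annotated to a single member. The family was chosen by measured values, since the log2 intensity of Slit2 in mutant right atria lay above that of both control tissues. The mutant values of all 6 genes are therefore given as a description without a test. The difference between the control chambers was not part of that choice and was tested.

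Slits are large secreted glycoproteins that bind heparan sulphate and signal through Robo receptors, single-pass proteins of the immunoglobulin superfamily. The pathway is best known for repelling axons at the midline. In mice it also takes part in forming the cardiac septa, valves and caval veins. Robo4 differs from the other receptors in being found mainly in endothelium, where it helps to keep vessels stable.

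The samples were 3 right atria of Myh6-cre; COUP-TFIIflox/flox mutants, 3 right atria of COUP-TFIIflox/flox controls and 3 ventricles of COUP-TFIIflox/flox controls, all from mice on a C57BL/6 background at 2 months of age. COUP-TFII is the nuclear receptor encoded by Nr2f2, and the Myh6 promoter drives Cre in cardiomyocytes, so other cells of the atrium keep the floxed gene. The controls carry the floxed alleles without Cre, so Cre activity and loss of the gene cannot be told apart. The labels call the replicates biological without saying whether each is a separate animal. The p-values therefore rest on the spread between these samples, pooled over all groups, which may differ from that between animals.

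The sequences below show 2 features of the genes themselves. Slit2 and Slit3 each contain a gene for the microRNA miR-218, and miR-218 is known to repress Robo1 and Robo2. The mature forms are given in RefSeq, build GRCm38.p6, with the seed (bases 2 to 8) in capitals. The -5p form is the same in both hosts, at chr5:48223966-48223986 inside Slit2 and chr11:35616840-35616860 inside Slit3, both on the plus strand. The -3p forms, at chr5:48224005-48224026 and chr11:35616882-35616903 on the plus strand, differ in sequence and in seed. MicroRNA levels were not analysed here.
mmu-miR-218-5p: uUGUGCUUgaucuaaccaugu
mmu-miR-218-1-3p: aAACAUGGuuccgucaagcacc
mmu-miR-218-2-3p: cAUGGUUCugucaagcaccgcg

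Promoter windows of RefSeq, 250 bases before to 50 after the start of a transcript, matched 5 of the 6 members, with 7 windows in all. The unmatched member is Slit1. COUP-TFII is known to bind repeats of AGGTCA, so this motif was searched on both strands. AGGTCA is in 16.3% of 32817 promoter windows, and among the members it is in the window of Robo4 alone. Its direct repeat with 1 base between the copies is in 0.0396% of windows and was in none of the members' windows. TATAAA, the core of the TATA box, is in 13.6% of windows on either strand and, among the members, in that of Slit2. It begins 28 bases before the start of Slit2, and the window is 68% G and C, against a median of 52.7% over all windows. The 250 bases upstream of Slit2 (GRCm38.p6 chr5:47982905-47983154, plus strand) and Robo4 (chr9:37401722-37401971, plus strand) are shown with TATAAA and AGGTCA in capitals. These matches describe letters in a window and no binding was measured.
Slit2: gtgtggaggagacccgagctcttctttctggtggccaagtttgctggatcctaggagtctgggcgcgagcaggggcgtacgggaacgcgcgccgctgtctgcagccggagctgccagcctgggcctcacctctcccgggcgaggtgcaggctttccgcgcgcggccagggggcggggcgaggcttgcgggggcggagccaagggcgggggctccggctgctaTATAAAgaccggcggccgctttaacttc
Robo4: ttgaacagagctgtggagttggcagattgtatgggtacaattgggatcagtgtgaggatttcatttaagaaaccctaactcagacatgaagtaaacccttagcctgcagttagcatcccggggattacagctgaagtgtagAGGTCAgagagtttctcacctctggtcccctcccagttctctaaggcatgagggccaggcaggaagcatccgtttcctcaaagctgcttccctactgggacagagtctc

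Transcript levels are the log2 of intensities that the authors made with RMA, a method that removes background, gives all arrays the same distribution and sums up the probes of a set. Before the log2, array medians ranged from 80.9 to 83.4. Means are given ± SD and differences ± SE, with n = 3 arrays per group. Nr2f2 stood between 6.62 and 6.82 in mutant atria, between 7.29 and 7.66 in control atria and between 5.34 and 5.96 in control ventricles. Of the chamber markers, Myl7 of atrial muscle lay between 14.89 and 14.95 in control atria and between 6.08 and 8.36 in ventricles. Myl2 of ventricular muscle lay between 15.00 and 15.02 in ventricles and between 10.50 and 11.66 in control atria. Both control tissues thus carry the markers of their labels. In mutant atria Myl7 lay between 12.67 and 14.12 and Myl2 between 14.77 and 14.93. Gapdh control probes at the 3' end exceeded those at the 5' end, a sign of RNA quality, by log2 values of 0.214 to 0.304 in mutant atria, 0.153 to 0.227 in ventricles and 0.345 to 0.364 in control atria. It moves with the groups, and its part in the results was not tested.

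Slit2 was the member that set the mutant atria apart, and it did so on each of its 3 probe sets. The brightest gave log2 intensities of 12.62, 12.45 and 12.43 in mutant atria, against 8.55, 8.13 and 8.49 in control atria and 7.70, 8.17 and 8.05 in control ventricles. Every mutant array lay above every control array, while the control atria and ventricles overlapped. The log2 difference was 4.11 ± 0.14 against control atria (17.2-fold) and 4.53 ± 0.14 against ventricles (SE, 3 arrays per group).

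The other probe sets of Slit2 showed the same order of mutant over control. One of them (1458140_at) gave 10.13, 10.50 and 10.37 in mutant atria, against 6.20, 5.80 and 5.58 in control atria and 5.79, 5.47 and 5.28 in ventricles. The remaining one (1451430_at) gave 7.929, 7.744 and 7.772 in mutant atria, against 4.115, 4.012 and 4.001 in control atria and 3.996, 4.084 and 4.208 in ventricles. The mutant groups stood clear of both control tissues on both. The differences against control atria were 4.47 ± 0.17 and 3.77 ± 0.08, or 22.2-fold and 13.7-fold. The last probe set and the brightest were designed from the same accession, so they are not independent views of the transcript.

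Slit3, which like Slit2 is a secreted ligand, was high in both kinds of atria and low in ventricles. It gave 9.10, 8.71 and 9.16 in mutant atria, against 8.71, 8.80 and 8.78 in control atria and 6.18, 6.06 and 6.52 in ventricles. Mutant and control atria overlapped, and both lay above all ventricles. The difference between mutant and control atria was 0.22 ± 0.14 (95% interval -0.09 to 0.54), and that between mutant atria and ventricles 2.73 ± 0.14.

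Slit1, the third ligand and best known from the nervous system, was dim and nearly flat. Its brighter probe set gave 6.18, 6.23 and 6.20 in mutant atria, against 6.04, 6.04 and 6.13 in control atria and 6.47, 6.35 and 6.20 in ventricles. The mutant arrays lay above the control atria by 0.14 ± 0.07 and overlapped the ventricles. Its dimmer probe set differed by 0.09 ± 0.12 between mutant and control atria, with overlapping groups.

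**Figure D1:**
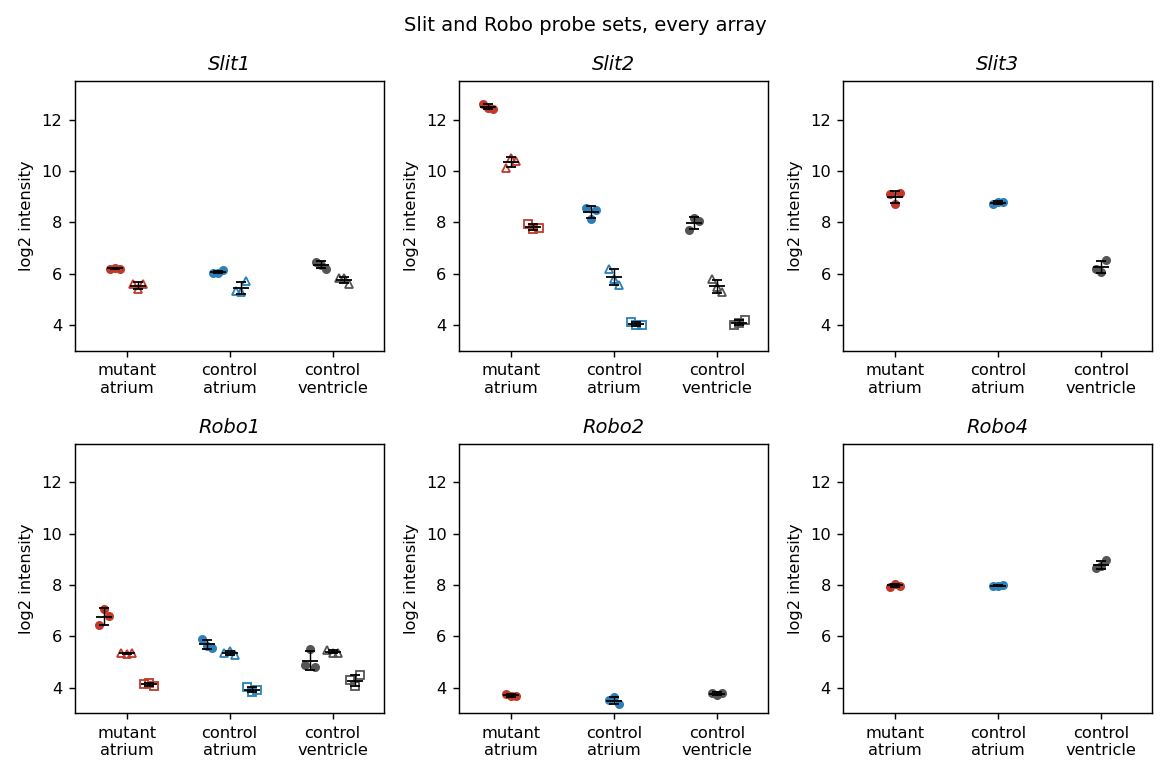
Log2 intensity (vertical axis) of every probe set of the 6 genes in 3 mutant atria, 3 control atria and 3 control ventricles. Coloured symbols are single arrays (filled circles for the brightest probe set, open triangles and squares for the next ones) and black bars the mean ± SD. All 3 probe sets of Slit2 are high in mutant atria alone, Slit3 is low in ventricles, and Robo1 is clearly higher in mutant atria on its brightest probe set.

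Robo1, a main Slit receptor, had the largest mutant difference among the 3 receptors. Its brightest probe set gave 6.44, 7.08 and 6.80 in mutant atria, against 5.90, 5.61 and 5.55 in control atria and 4.87, 5.50 and 4.81 in ventricles. No pair of groups overlapped, with mutant atria highest and ventricles lowest. The differences were 1.09 ± 0.21 against control atria (2.13-fold) and 1.71 ± 0.21 against ventricles (3.28-fold).

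The dimmer probe sets of Robo1 showed smaller differences. The one with ID 1457407_at gave 5.31 to 5.36 in mutant atria, against 5.29 to 5.41 in control atria, and 1445549_at gave 4.07 to 4.20 in mutant atria, against 3.82 to 4.03 in control atria. They differed by -0.02 ± 0.06 and 0.21 ± 0.11, with overlapping groups on 1457407_at and with all mutant arrays above the control atria on 1445549_at. With the mean of all 3 probe sets the Robo1 difference was 0.43 against control atria and 0.50 against ventricles.

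Robo2, another receptor of the nervous system, lay near the floor of the arrays, at the 2.22 percentile of gene means. It gave 3.76, 3.67 and 3.68 in mutant atria, against 3.51, 3.63 and 3.37 in control atria and 3.81, 3.71 and 3.79 in ventricles. The mutant arrays lay above the control atria by 0.20 ± 0.08 and overlapped the ventricles.

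Robo4, the endothelial receptor, overlapped between mutant and control atria. It gave 7.912, 8.054 and 7.974 in mutant atria, against 7.964, 7.946 and 7.997 in control atria and 8.65, 8.73 and 8.97 in ventricles. All atria lay below all ventricles. The difference between mutant and control atria was 0.01 ± 0.09 (95% interval -0.18 to 0.20), and that between mutant atria and ventricles -0.80 ± 0.09.

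In the limma fit 17.5% of all genes were past the threshold of adjusted p 0.05 in mutant against control atria (7.76% higher and 9.79% lower). For mutant atria against ventricles the share was 32.7% (16.0% higher and 16.7% lower). Since these contrasts chose the family, no calls are given for its members. Over the whole array, 52 genes (0.286%) were at least 2-fold above both control tissues with every mutant array above every control array. Ranked by the smaller of both differences, Slit2 was number 2 of these, after Kcne1l and before Thbs4, and Robo1 was number 47. The family was chosen because Slit2 lay above both control tissues, so the rank of Slit2 restates that choice.

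**Figure D2:**
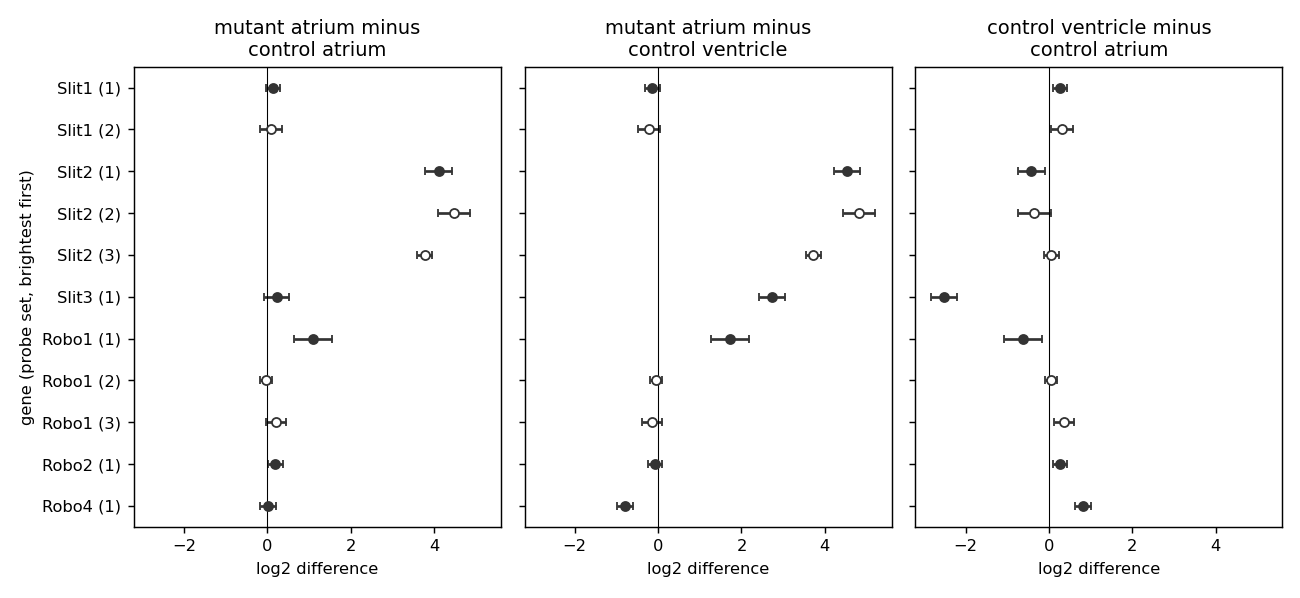
Log2 differences (horizontal axis) of the 11 probe sets for mutant minus control atrium, mutant atrium minus control ventricle and control ventricle minus control atrium. Points are limma estimates with 95% intervals from 3 arrays per group, filled for the brightest probe set of a gene. The 3 Slit2 probe sets lie between 3.72 and 4.82 in both mutant panels, and Slit3 is the member farthest from 0 between control chambers, at -2.51.

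The comparison of control ventricles with control atria shows how the family differs between chambers without the mutation. Y-linked signal, a sign of male tissue, moved with the chambers, with a summed intensity over 3 genes of 41.4 to 43.8 in ventricles, against 133 to 1600 in control atria. In mutant atria the sum ranged from 39.9 to 1660. With the mean of these genes as a covariate, 4 of the 6 members passed between the chambers, and Robo1 and Robo2 did not. Slit3 was lower in ventricles and Robo4 higher, while the other 4 genes differed by less. Slit3 fell by 2.51 ± 0.14 to 6.25 ± 0.24 in ventricles, against 8.76 ± 0.05 in control atria (SD, n = 3), with a limma adjusted p of 1.02e-06. Robo4 rose by 0.81 ± 0.09 to 8.78 ± 0.16 in ventricles, against 7.97 ± 0.03 in control atria, with a limma adjusted p of 5.21e-05. In bulk samples, fewer cells of a type and less RNA per cell cannot be told apart.

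Slit1 and Robo2 were each 0.27 higher in ventricles (SE 0.07 for Slit1 and 0.08 for Robo2, limma adjusted p of 0.0137 and 0.0158), on dim probe sets whose chamber groups did not overlap. Slit2 fell by 0.42 ± 0.14 (limma adjusted p = 0.032), although 1 ventricle array lay above the lowest control atrium. Robo1 fell by 0.63 ± 0.21 (limma adjusted p = 0.0289). All 6 genes thus passed, 3 higher and 3 lower, where 52.8% of all genes passed (29.2% higher and 23.6% lower).

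Probe sets of the same gene did not all go with these calls. Fitted over all 34945 probe sets, 7 of the 11 passed, 4 higher and 3 lower, beside 47.2% of all probe sets (25.7% higher and 21.5% lower). The dimmer probe sets of Slit2 gave -0.35 ± 0.17 (limma adjusted p = 0.124) and 0.05 ± 0.08 (limma adjusted p = 0.607). The latter, 1451430_at, was dim in both control tissues, at 3.996 to 4.208. The dimmer ones of Robo1 gave 0.04 ± 0.06 (limma adjusted p = 0.63) and 0.36 ± 0.11 (limma adjusted p = 0.0211), which for 1445549_at is of opposite sign to the brightest. 1445549_at was dim too, at 3.82 to 4.03 in control atria and 4.06 to 4.48 in ventricles. Its call was lost with quantile normalisation (limma adjusted p = 0.0872) and with covariates of Y-linked (0.148) or hepatocyte genes (0.519). It was also lost without control atrium replicate 2 (0.0757) or ventricle replicate 1 (0.0546) or 3 (0.0681). The dimmer probe set of Slit1 gave 0.32 ± 0.12 (limma adjusted p = 0.0511). Without control atrium replicate 2 the count of 7 was 4, and without ventricle replicate 1 it was 2.

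The chamber difference of Slit2 lost its call without control atrium replicate 1 (adjusted p = 0.112) or 3 (0.0874) or ventricle replicate 1 (0.106), with quantile normalisation (0.138), median centring (0.0618), array weights (0.0824), the replicate block (0.0587) and a fit of the 2 control groups (0.053). That of Robo1 lost it without control atrium replicate 1 (0.101) or 2 (0.0555), without ventricle replicate 1 (0.0941) or 3 (0.0976), with a covariate of Y-linked genes (0.198) and with the mean of all probe sets (-0.08, 0.398). Robo2 lost it with quantile normalisation (0.0698) and the Y-linked covariate (0.11). With a covariate of hepatocyte genes, which were high in control atria, Slit3 alone passed (0.00841), and Robo4 gave 0.74 (0.114).

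Marker lists of other cells moved with these differences, and their part was not tested. Their counts of genes past the threshold stand beside 23.6% of all genes lower in ventricles and 29.2% higher. For Slit3, the summed intensity of 12 fibroblast markers was 32200 to 35800 in ventricles, against 56600 to 61500 in control atria, with 10 lower and 1 higher. That of 13 mesothelial markers was 1690 to 2060 in ventricles, against 10800 to 13000 in control atria, with all 13 lower. That of 10 hepatocyte markers was 415 to 447 in ventricles, against 3110 to 17500 in control atria, again with all lower. In mutant atria, where Slit3 overlapped the controls, the fibroblast sum was 63300 to 66300, the mesothelial sum 4830 to 6290 and the hepatocyte sum 642 to 765.

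Beside Robo4, which was higher in ventricles, the lists of vessel cells went different ways. Their counts again stand beside 29.2% of all genes higher and 23.6% lower. The summed intensity of 12 smooth muscle and pericyte markers was 25900 to 30500 in ventricles, against 11000 to 12500 in control atria, with 8 higher and 3 lower. The endothelial sum over 14 genes was 11500 to 13200 in ventricles, against 22200 to 24200 in control atria, with 8 lower and 1 higher. Vwf, the von Willebrand factor, fell by 2.97 ± 0.16, and Cldn5, a tight junction protein of vessels, rose by 0.96 ± 0.24 (limma adjusted p of 7.4e-07 and 0.00781). Also among the 8 lower, Eng gave -1.78 ± 0.13, Emcn -1.69 ± 0.15, Pecam1 -1.30 ± 0.15 and Tek -1.28 ± 0.13. Their limma adjusted p lay between 4.26e-06 and 0.000114. Kdr, a receptor for VEGF, differed by 0.30 and Cdh5, the cadherin of endothelium, by 0.19 without passing (0.112 and 0.058).

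Slit2 was also placed in a list of genes of the Purkinje fibres, the fast conducting cells of the heart. Of 7 such genes measured besides Slit2, 5 rose and 1 fell in mutant against control atria, beside 7.76% and 9.79% of all genes. Their summed intensity was 5560 to 6250 in mutant atria, against 1710 to 1790 in control atria and 2640 to 3170 in ventricles. The largest term of the sum in mutant atria was Irx3, with a log2 mean of 11.66, against 8.20 in control atria and 10.48 in ventricles. Gja5 was the gene that fell, by 1.09 ± 0.16. The part of these genes in the Slit2 values was not tested.

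The co-receptors and binders of the pathway were described from a list of 15 genes, all measured. They comprise the heparan sulphate proteoglycans that hold Slit at the cell surface, the enzymes that build heparan sulphate, and partner receptors. In mutant against control atria 2 rose and 2 fell, beside 7.76% and 9.79% of all genes. Their median difference was -0.03, against 0.03 over all genes. Sdc4, the proteoglycan syndecan-4, rose by 0.97 ± 0.13 to 10.83 ± 0.26 in mutant atria, against 9.85 ± 0.14 in control atria (limma adjusted p = 0.00112). Sdc1, or syndecan-1, fell by 1.17 ± 0.11 to 6.40 ± 0.25 in mutant atria, against 7.57 ± 0.02 in control atria (limma adjusted p = 0.000201). Gpc1, the glypican known to bind Slit2, fell by 0.94 ± 0.13 to 11.20 ± 0.26 in mutant atria, against 12.14 ± 0.16 in control atria (limma adjusted p = 0.00132).

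Between the control chambers 7 of these 15 genes were lower and 2 higher in ventricles, beside 23.6% and 29.2% of all genes. Their median was -0.24, against 0.07 over all genes. Sdc1 fell by 1.17 ± 0.11 (limma adjusted p = 3.35e-05). Dcc, the netrin receptor that Robo1 can silence, rose by 0.32 ± 0.08 (limma adjusted p = 0.00944), and Hs6st1, which sulphates heparan chains, by 0.24 ± 0.08 (0.0353). Against ventricles the mutant atria had 3 of the 15 genes higher and 1 lower, beside 16.0% and 16.7% of all genes. Sdc4 rose by 1.54 ± 0.13 (limma adjusted p = 2.54e-05) and Hs6st1 fell by 0.25 ± 0.08 (0.0418).

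The list of intracellular partners held 34 genes, of which 33 were measured. They are small GTPases, their regulators such as the srGAP proteins that bind Robo tails, Abl kinases and actin regulators. In mutant against control atria 3 rose and 4 fell, with a median of 0.03, beside 7.76% and 9.79% of all genes. Cdh2, the N-cadherin whose adhesion Robo can loosen, rose by 0.60 ± 0.09 and Pfn1, the actin binder profilin, by 0.48 ± 0.07 (limma adjusted p of 0.00275 and 0.00173). Srgap1 rose by 0.24 ± 0.06 (limma adjusted p = 0.0282). Usp33, a deubiquitinase that binds Robo1, fell by 0.39 ± 0.08 and Sos1, an exchange factor recruited to Robo, by 0.33 ± 0.07 (0.0111 and 0.00913). Srgap2 differed by 0.04 ± 0.06 and Srgap3 by 0.37 ± 0.12 without passing (0.727 and 0.0551).

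In ventricles against control atria 11 of the 33 intracellular genes were lower and 1 higher, with a median of -0.07. Of all genes 23.6% were lower and 29.2% higher there. The Ena/VASP protein gene Evl fell by 0.50 ± 0.07, Sos1 by 0.46 ± 0.07 and Cap2, which binds actin, by 0.41 ± 0.07, while Cdh2 rose by 0.55 ± 0.09. Their limma adjusted p lay between 0.000218 for Evl and 0.00103 for Cdh2. In mutant atria against ventricles 10 were higher and 3 lower, beside 16.0% and 16.7% of all genes. Evl rose by 0.53 ± 0.07, Pfn1 by 0.40 ± 0.07 and the kinase gene Abl1 by 0.35 ± 0.07 (limma adjusted p of 0.00026, 0.00173 and 0.00373). Clasp1, which guides microtubule ends, fell by 0.32 ± 0.07, the second profilin Pfn2 by 0.35 ± 0.11 and Abl2 by 0.27 ± 0.09 (0.00862, 0.0362 and 0.0373).

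Over both lists 11 of 48 genes (22.9%) passed in mutant against control atria, 17 (35.4%) in mutant atria against ventricles and 21 (43.8%) between the control chambers, beside 17.5%, 32.7% and 52.8% of all genes. Without control atrium replicate 2 the count in mutant against control atria was 7. With the hepatocyte covariate it was 1 there and 1 between the control chambers. Srgap1 lost its call without any of the 3 mutant arrays or control atrium replicate 1 or 2 (adjusted p 0.0508 to 0.0922), with the replicate block (0.0595), an intensity trend (0.051), quantile normalisation (0.0546) and the mean of all probe sets (0.088). With that mean the calls of Sos1 in both its comparisons, of Evl in both and of Abl1 were also lost. Against ventricles, Pfn2 lost its call without mutant replicate 1 or 2 or any ventricle, Abl2 without any mutant array, control atrium replicate 3 or ventricle replicate 2 or 3, and Hs6st1 without mutant replicate 1 or 2, control atrium replicate 2 or 3 or ventricle replicate 2 or 3. Pfn2 also lost it with quantile normalisation (limma adjusted p = 0.0507) and array weights (0.0597). Abl2 did so with only the groups compared (0.0566) and the hepatocyte covariate (0.0513). Hs6st1 did so with array weights (0.0502), only the groups compared (0.0656) and the hepatocyte covariate (0.0543). Between the chambers Hs6st1 lost it without any control atrium or ventricle replicate 2 or 3.

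**Figure D3:**
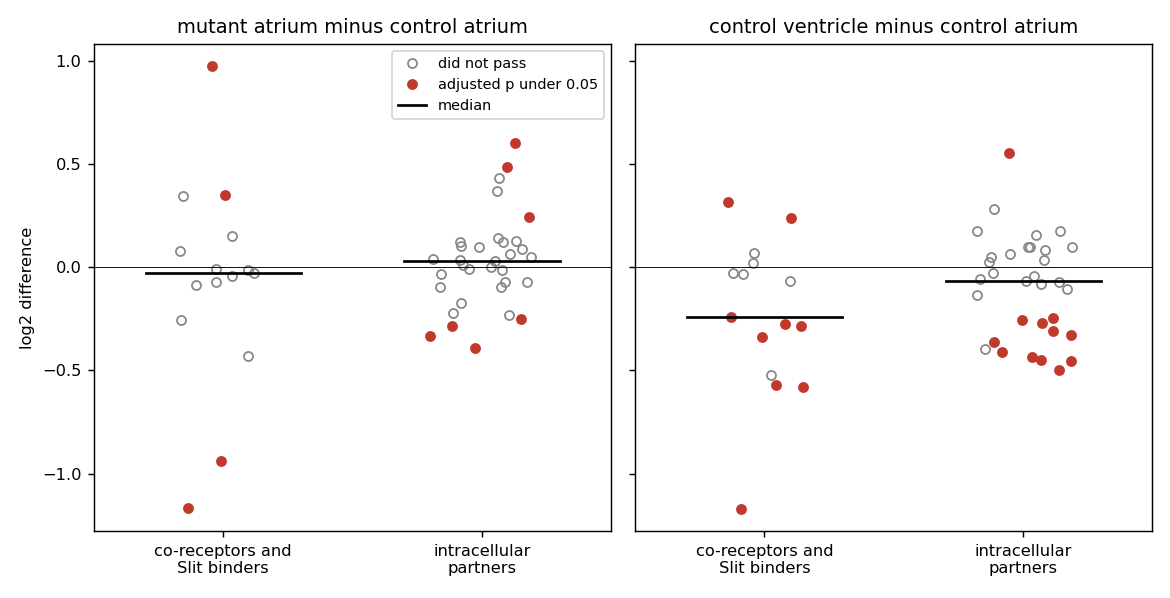
Log2 differences (vertical axis) of the pathway genes, 15 co-receptors and Slit binders and 33 intracellular partners, for mutant minus control atrium and control ventricle minus control atrium. Each point is a gene, filled where the limma adjusted p is under 0.05, and lines mark medians. Most points lie within 0.5 of 0, and more filled points lie below 0 than above it between the control chambers.

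Robo3, the receptor next to Robo4 on chromosome 9, is in the co-receptor list because in mammals it has lost most of its Slit binding. Its brighter probe set gave 5.35, 5.11 and 5.22 in mutant atria, against 5.11, 5.12 and 5.23 in control atria and 4.87, 4.78 and 4.96 in ventricles. Mutant and control atria overlapped, with a difference of 0.08 ± 0.08 (limma adjusted p = 0.535). Ventricles were lower than control atria by -0.28 ± 0.08 (0.0155). This gene is named here after its values were seen.

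The genes whose levels ran most like those of the members were sought by Pearson correlation of log2 intensity over the 9 arrays, among 1572 genes whose group means span at least 1. The arrays fall into 3 groups that the genes share, so the correlations describe the pattern and carry no p. For Slit2 these were Drd2, a dopamine receptor (r = 0.986), Etv5, an ETS transcription factor (0.981), E230013L22Rik (0.979), Slc16a12, a transporter (0.978), and Psca, a surface antigen (0.971). Their mutant means exceeded those of control atria by 3.21 ± 0.10 for Drd2, 2.04 ± 0.09 for Etv5, 0.91 ± 0.08 for E230013L22Rik, 2.80 ± 0.17 for Slc16a12 and 2.99 ± 0.20 for Psca. Each of them lay within 0.5 log2 units between the control tissues. Their higher mutant means follow from the choice by correlation with Slit2.

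**Figure D4:**
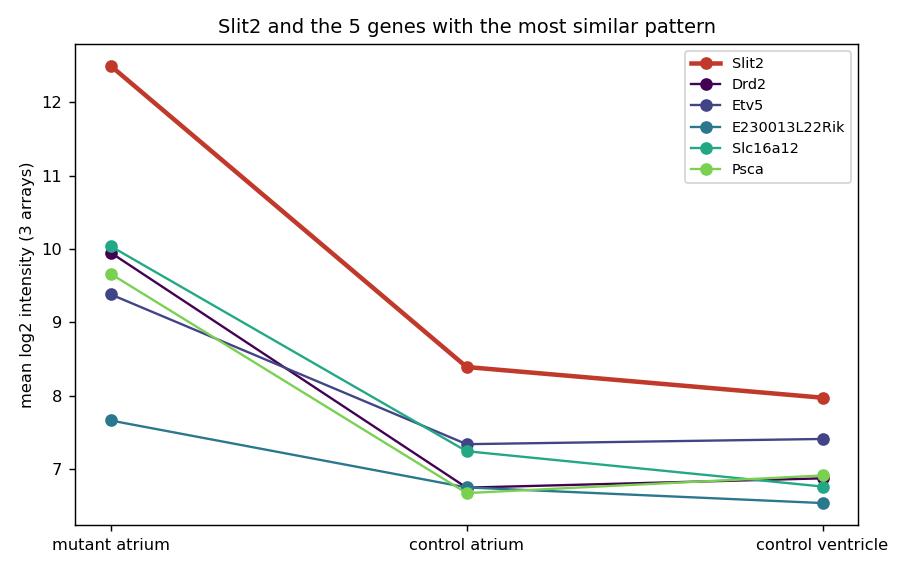
Mean log2 intensity (vertical axis, 3 arrays per group) of Slit2 and of the 5 genes with the highest correlation to it, in mutant atria, control atria and control ventricles. Lines join the means of a gene to guide the eye. Slit2 has a log2 difference of 4.11 between mutant and control atria. The other genes also lie higher in mutant atria than in both control tissues, which follows from their choice by correlation with Slit2.

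For Slit3 the most alike were Vit, a matrix protein (r = 0.997), Chn2 (0.995) and Arhgap24 (0.994), both of which encode GTPase activating proteins of the Rac type. They were lower in ventricles than in control atria by -3.15 ± 0.09 for Vit, -1.34 ± 0.08 for Chn2 and -1.49 ± 0.10 for Arhgap24. For Robo1 they were Erc2, a protein of the presynaptic zone (0.983), Thsd7a (0.977) and Nalcn, a sodium leak channel (0.964), with mutant over control atrium differences of 0.84 ± 0.10, 1.74 ± 0.27 and 1.14 ± 0.12. For Robo4 they were Tcf15, a transcription factor (0.992), Gpat3 (0.987) and Ddc, a decarboxylase (0.986), higher in ventricles than in control atria by 1.29 ± 0.14, 1.00 ± 0.12 and 1.80 ± 0.24. The group means of Slit1 and Robo2 span 0.27 each, under the 0.5 set for this search, and no genes are named for them.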

How the data were processed

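RNA of 9 mouse heart samples was labelled by 3' IVT and hybridised to Affymetrix arrays, per the labels. The authors deposited linear intensity values per probe set, made with RMA per the submitters' processing notes; its software and version are not given in the sources used here. Their log2 was taken and no further normalisation applied. Of 45101 probe sets, 64 controls, 932 of several genes and 9160 without a symbol were left out, leaving 34945. Each of 18193 genes was represented by its brightest probe set on average. A model with a mean per group was fitted to all 9 arrays with limma 3.58.1 in R 4.3.3 (lmFit, eBayes, 6 residual and 3.48 prior degrees of freedom), 2-sided; p-values were adjusted over all genes by Benjamini-Hochberg and called below 0.05. The probe sets were fitted likewise.

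Members, lists and tests were chosen with earlier results of these data known. Named pathway genes are, per comparison and direction, up to 4 with the smallest p among those past the threshold, and like genes the 5 (Slit2) or 3 with the highest correlation. Of each marker list up to 2 genes were to be named. Robo3, Srgap2 and Srgap3 were named outside these rules, as were the endothelial markers Kdr, Cdh5, Eng, Emcn, Pecam1 and Tek. Alternatives were an intensity trend, the replicate block, array weights, quantile normalisation, a filter on the dimmest 40% of genes, averaging the probe sets of a gene, only the groups compared, median centring, an adjusted p of 0.01, covariates of Y-linked and hepatocyte genes, and leaving out each array. The fit was tested on simulated data for ventricles against control atria over 18193 genes. It recovered 70 of 100 genes changed 1.5-fold and 95 of 100 changed 2-fold, with 10 false calls. Only those genes were changed there, with noise drawn separately for each gene and array. In the data 52.8% of all genes passed in this comparison, so these rates may not carry over. Arrays have no depth, and their number limits the precision.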

Additional observations from a re-analysis of the deposited data

How the results depend on the processing

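The Slit2 differences of 4.11 and 4.53 between mutant atria and the control tissues stayed within 3.98 to 4.19 and 4.39 to 4.63 when single arrays were left out, and moved by less than the spread between arrays under every alternative run. Of the 6 genes called between control chambers, 3 were called without the dimmest 40% of genes, where Slit1, Robo1 and Robo2 are not tested, 2 at an adjusted p of 0.01, 1 with the hepatocyte covariate and 4 to 6 without single arrays. Of the 7 probe sets called there, 4 were called without the dimmest 40%, 4 with quantile normalisation, 3 with the Y-linked covariate, 1 with the hepatocyte covariate, 2 at an adjusted p of 0.01 and 2 to 7 without single arrays, with 4 without control atrium replicate 2 and 2 without ventricle replicate 1. The pathway count in mutant against control atria, 11, became 1 with the hepatocyte covariate, 6 at an adjusted p of 0.01 and 7 to 11 without single arrays. That in mutant atria against ventricles, 17, became 11 at an adjusted p of 0.01 and 13 to 17 without single arrays, and that between control chambers, 21, became 1 with the hepatocyte covariate and 16 to 22 without single arrays. The hepatocyte covariate nearly follows the groups. It ended the calls of Sdc4, Pfn1, Srgap1, Sdc1, Gpc1, Sos1 and Usp33 in mutant against control atria. The mean of all probe sets ended those of Sos1 there and between chambers, of Evl between chambers and against ventricles, and of Abl1 against ventricles. Pfn2 (adjusted p up to 0.114), Abl2 (up to 0.106) and Hs6st1 (up to 0.132) lost their calls in mutant atria against ventricles without several single arrays, as did Hs6st1 between chambers (up to 0.112). With the Y-linked covariate Abl2 also lost its call in mutant atria against ventricles (limma adjusted p = 0.0685). Over all genes, the 3192 calls in mutant against control atria became 65 with the hepatocyte covariate, 1267 at an adjusted p of 0.01, and 1832, 1990, 1972 and 2013 without mutant replicate 2 or 3 or control atrium replicate 1 or 2. The 5956 against ventricles became 3648 at an adjusted p of 0.01, and the 9615 between chambers 1110 with the hepatocyte covariate. Except where the text names it, the cause was not tested.

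The labels number the replicates alike in each group without pairing them. Deviations from group means correlated at -0.102 to 0.125 between arrays of the same number and at -0.156 to 0.145 between others, and an array correlated best with its own number in 8 of 18 cases. With the replicate number as a block, 5 member genes and 6 probe sets were called between chambers, and 9, 18 and 22 pathway genes in mutant against control atria, mutant atria against ventricles and between chambers. The Slit2 differences stayed at 4.11 and 4.53 with the block.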
